A study of Mus musculus with 6 samples.

Results

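The genes described here are 10 rows of a gene count matrix, chosen by symbol from its 24421 genes. They are the S100 genes S100a4, S100a6, S100a10, S100a11 and S100a13, the annexins Anxa1 and Anxa2, the galectins Lgals1 and Lgals3, and Capg, and all 10 passed the filter on low counts. RNA-seq libraries were made from untreated splenic Treg cells, sorted as CD4+YFP+ cells of female C57BL/6 mice aged between 8 and 11 weeks, with 1 library for each mouse. The control mice (WT, n = 3) were Foxp3Cre, and the knockout mice (KO, n = 3) were Foxp3Cre miR-142fl/fl, so both groups carried the Cre, a fusion with YFP driven by the endogenous Foxp3 promoter. The deletion of miR-142 was thus limited to Foxp3-expressing cells, but the KO mice develop systemic autoimmune disease, and the loss of the miRNA in the sorted cells and the state of the host cannot be told apart in this design.

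S100 proteins are small calcium-binding EF-hand proteins that mostly act as dimers on cytoskeletal and membrane partners. Annexins bind acidic phospholipids in a calcium-dependent manner, and S100a10 and Anxa2 join in a heterotetramer at the plasma membrane. Galectins bind β-galactoside sugars on glycoproteins, at the cell surface and after secretion, and Capg caps the barbed ends of actin filaments. In T cells several of these genes are known from activated and memory-like cells, and myeloid cells express them strongly as well, which is why the KO library with the most myeloid transcripts is read apart in what follows.

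Total counts per library ranged from 13883069 to 24042994, and 3 counts corresponded to between 0.123 and 0.227 CPM (counts scaled to the library size). Levels are in CPM after TMM scaling, the fold changes are KO over WT on the log2 scale with a standard error (SE), and the false discovery rate (FDR) is that of the quasi-likelihood F (QLF) test of edgeR over the 11658 genes that exceeded 1 CPM in 3 or more libraries. Intervals are 95% confidence intervals without adjustment for the number of genes. With 3 libraries against 3, an exact two-sided permutation test of a single gene cannot go below p = 0.1. Mir142b, which overlaps the targeted locus, fell from 6.33 ± 2.50 to 0.370 ± 0.0244 CPM (SD, n = 3 per group; log2 fold change -4.07, SE 0.39), in the direction of the labels. It exceeded 1 CPM only in the WT libraries, where it was higher, so its test is not read here. Foxp3, the Treg transcription factor, was measured at 566 ± 29.5 CPM in WT and 689 ± 54.9 CPM in KO libraries (SD, n = 3 per group), and Il2ra, the IL-2 receptor chain CD25, rose from between 726 and 799 CPM to between 2258 and 3073 CPM.

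KO replicate 1 stood apart from the other 5 libraries. The summed level of 16 monocyte and macrophage markers was 3919 CPM there, between 56.3 and 60.3 CPM in WT, and 135 and 65.4 CPM in KO replicates 2 and 3. The summed level of 14 neutrophil markers was 1042 CPM in KO replicate 1, between 4.37 and 6.16 CPM in WT, and 17.3 and 56.7 CPM in KO replicates 2 and 3. All 16 of the first list and 12 of the second were highest in KO replicate 1, and the most abundant of them there were Mpeg1, Csf1r and Vcam1 in the first and S100a9, S100a8 and Ngp in the second. Csf1r, the receptor that defines monocytes and macrophages, was at 640 CPM in KO replicate 1, 12.6 and 0.890 CPM in the other KO libraries and 0.830 CPM or less in WT. The summed level of 9 Treg markers did not set this library apart, with 7516 CPM against 8373 and 8484 CPM in the other KO libraries. Among markers of other cells, 9 B cell genes summed to 316 CPM in KO replicate 1 and to 41.8 CPM or less elsewhere, 8 dendritic cell genes to 182 CPM and to 33.1 CPM or less elsewhere, 8 CD8 and NK cell genes to 85.6 CPM and to 56.7 CPM or less elsewhere, and 10 erythroid and platelet genes to 20.5 CPM and to 10.3 CPM or less elsewhere.

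**Figure D1:**
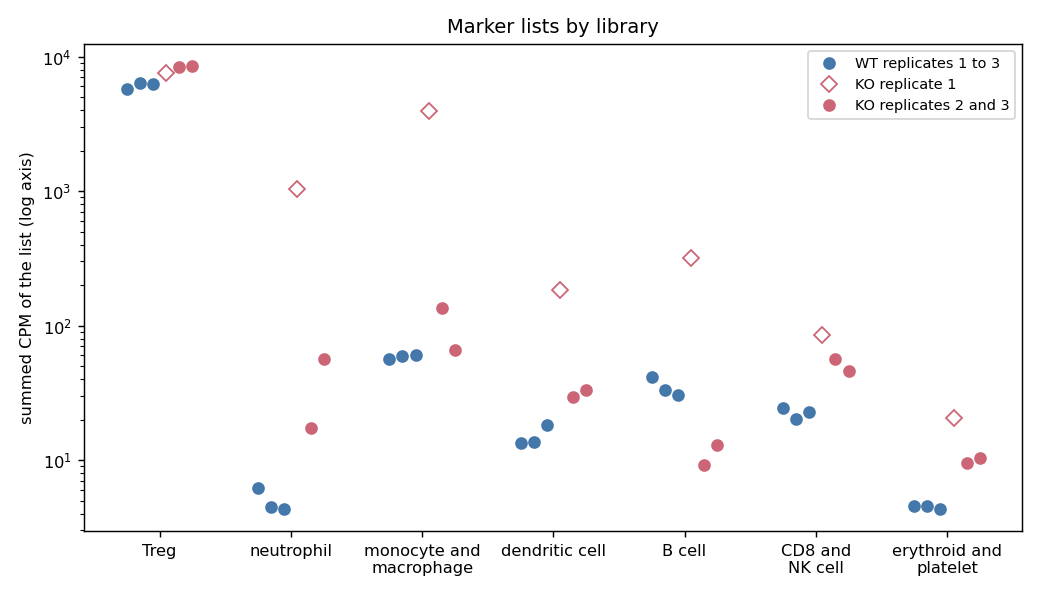
Summed CPM (log axis) of the marker genes of each cell type in the 3 WT and 3 KO libraries, 1 point per library, with KO replicate 1 as an open diamond. The monocyte and macrophage sum is 3919 CPM in KO replicate 1 and at most 135 CPM in the other 5 libraries, whereas the Treg sums lie between 5691 and 8484 CPM in all 6.

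The miRNA that was deleted is shown here because its seeds define the sites searched for in the 10 transcripts. The mature sequences are those of RefSeq, with the seed (bases 2 to 8) in capitals, and miR-142-3p is given a second time with the seed moved by 1 base, as its 5′ end varies:
miR-142-3p: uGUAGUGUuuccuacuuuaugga
miR-142-3p, offset seed: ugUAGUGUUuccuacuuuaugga
miR-142-5p: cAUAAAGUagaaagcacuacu
Both lie on the plus strand of chromosome 11 in GRCm38.p6, miR-142-3p at chr11:87756903-87756925 and miR-142-5p at chr11:87756867-87756887. The longest annotated 3′ UTR of each gene was searched on the transcribed strand for ACACTAC and then CACTACA, which match the first 3p seed, for AACACTA and then ACACTAA, which match the offset seed, and for ACTTTAT and then CTTTATA, which match the 5p seed. In each pair, the first form matches all capital letters of the seed. The second matches all but the last of them and ends in an A. Some of these letters overlap, so that a single stretch can hold more than 1 of them. None of the 10 genes held a 3p site, and 1 of them, Lgals3, held a 5p site, printed with its 10 flanking bases on each side and the site in capitals:
Lgals3 site: agctgcctgtCTTTATAtgccctttga
This CTTTATA lies at chr14:47386085-47386091 on the plus strand (GRCm38), in exon 6 of Lgals3, at position 405 of a 3′ UTR of 480 bases. The 3′ UTRs of the 10 genes are short, from 85 to 480 bases against a median of 1185 bases over 11129 tested genes. Among the 2364 tested genes with a 3′ UTR in that range, 4.65% held a 3p site and 5.42% a 5p site, compared with 22.6% and 23.5% of all 11129. A match of these letters is a description, not a binding site.

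The 10 genes covered a wide range of levels in WT Treg cells. Per kilobase of annotated exon, S100a10 was highest with a mean of 233 CPM per kilobase, above 99.4% of tested genes, and its lowest WT library lay above the highest of the gene next in order. Lgals1 (116), S100a4 (106), S100a11 (76.7) and Capg (75.6 CPM per kilobase) followed, and each of these overlapped its neighbour among the WT libraries. S100a13 (43.5), S100a6 (32.1), Anxa2 (13.5), Lgals3 (2.26) and Anxa1 (0.524 CPM per kilobase) came after them, each apart from its neighbours. Lgals3 and Anxa1 were thus low in WT cells, above only 23.6% and 7.79% of tested genes. The exon lengths are those of GENCODE and include all annotated isoforms, so that the order rests on that annotation.

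Of the 10 genes, 4 rose in KO Treg cells (S100a6, S100a13, Lgals3 and Capg) and 0 fell at an FDR under 0.05, where 11.6% of all tested genes were called higher and 7.27% lower. The log2 fold change was positive for 9 of the 10, with a median of 0.90 against 0.02 over all tested genes. When KO replicate 1 was left out, the same 4 genes were called higher and 0 lower, with 9.69% of 11429 tested genes higher and 7.59% lower. The median over the 10 genes was then 0.49, against -0.02 over all tested genes, and the log2 fold change was lower for each of the 10. Leaving out WT replicate 2 or WT replicate 3 left only Capg called, with 4.18% and 4.81% of all tested genes called higher. Leaving out WT replicate 1, KO replicate 2 or KO replicate 3 gave 4, 6 and 3 of the 10 genes, with 5.78%, 12.3% and 7.62% of all tested genes. DESeq2 called 6 of the 10 higher and 0 lower, where it called 14.3% and 10.3% of all tested genes, and added S100a4, Anxa2 and Lgals1 (adjusted p = 0.0302, 0.0225 and 0.00698), but gave no adjusted p for Anxa1 and Lgals3. In bulk RNA, a change in the share of cells that express a gene and a change in its level per cell cannot be told apart.

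**Figure D2:**
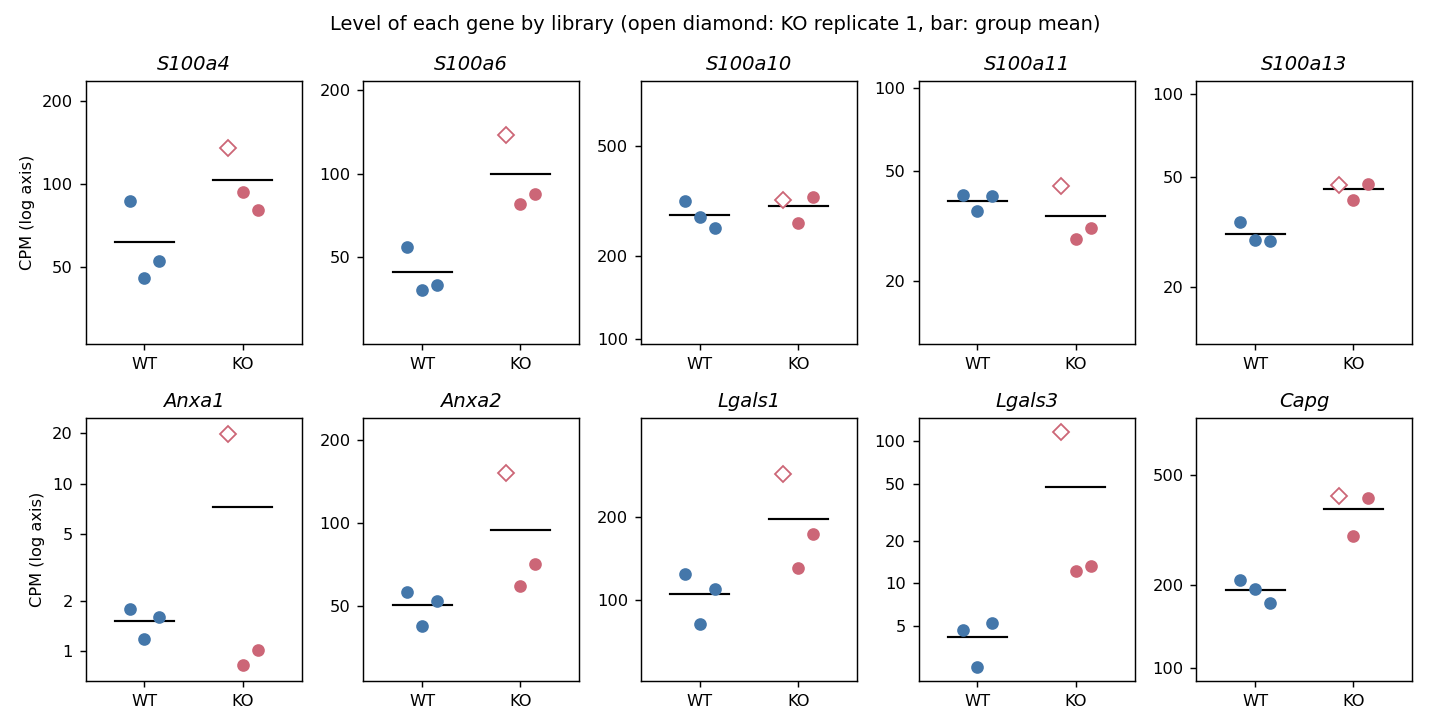
TMM-scaled CPM (log axis) of the 10 genes in each library, with WT in blue, KO in red, KO replicate 1 as an open diamond and a bar at each group mean. The KO libraries lie above all WT libraries for S100a6, S100a13, Anxa2, Lgals1, Lgals3 and Capg, and KO replicate 1 is the highest library for all genes but S100a10 and S100a13.

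Among the S100 genes, S100a6 showed the largest fold change. S100a6 binds the ubiquitin ligase adaptor Cacybp and lies at chr3:90612882-90624181 (GRCm38, plus strand). Its levels were 54.1, 37.8 and 39.6 CPM in WT replicates 1, 2 and 3, and 138, 77.5 and 84.1 CPM in KO replicates 1, 2 and 3. The groups did not overlap, with the KO libraries above, and KO replicate 1 was at 1.70 times the mean of the other KO libraries. On the log2 scale S100a6 rose by 1.19 (SE 0.25, FDR = 0.0177), from 43.8 ± 8.94 to 99.7 ± 33.0 CPM (SD, n = 3 per group). Without KO replicate 1 it was 0.87 (FDR = 0.00955), and the call was lost without WT replicate 2 (FDR = 0.0829) or WT replicate 3 (FDR = 0.0753).

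S100a13, which takes part in the release of signal proteins that lack a leader peptide, lies at chr3:90514435-90524581 on the plus strand. It had 34.4, 29.5 and 29.3 CPM in WT replicates 1 to 3 and 46.9, 41.3 and 47.1 CPM in KO replicates 1 to 3. The groups did not overlap, and KO replicate 1 was within the range of the KO group. Its log2 fold change of 0.54 (SE 0.11, FDR = 0.0171) was smaller than that of S100a6 but had a narrow interval, from 0.28 to 0.80. Without KO replicate 1 it was 0.49 (FDR = 0.0381), and the call was lost without WT replicate 2 (FDR = 0.0881), WT replicate 3 (FDR = 0.0793) or KO replicate 3 (FDR = 0.0566).

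S100a4, a partner of non-muscle myosin heavy chain that is known from motile and memory T cells, was not called. Its levels were 87.3, 45.9 and 52.7 CPM in WT and 136, 93.5 and 81.1 CPM in KO libraries. The groups overlapped, since WT replicate 1 lay above KO replicate 3. The log2 fold change was 0.74 (SE 0.28, FDR = 0.107) with all libraries, 0.48 without KO replicate 1 (FDR = 0.212) and passed the threshold without WT replicate 1 (FDR = 0.0491). S100a4 lies at chr3:90603771-90606045 (plus strand), and 302 of its exon bases (51.7%) are shared with Gm42674, a gene model on the same strand that has no row in the matrix.

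S100a10 and S100a11 lie apart from these 3 genes in their position on chromosome 3, and neither was called. S100a10, the partner of Anxa2, had 318, 276 and 253 CPM in WT and 319, 264 and 327 CPM in KO libraries, and the ranges of the groups nearly coincided. Its log2 fold change was 0.10 (95% interval -0.19 to 0.39, FDR = 0.596). The interval leaves out the point estimates of S100a6, S100a13 and Capg but overlaps the interval of S100a13 (0.28 to 0.80). A difference between these genes was not tested. S100a11, which binds Anxa1, had 41.0, 36.0 and 40.6 CPM in WT and 44.1, 28.5 and 31.1 CPM in KO libraries, with KO replicate 1 above and the other KO libraries below all WT libraries. Its log2 fold change was -0.18 (SE 0.17, FDR = 0.504), and -0.41 without KO replicate 1 (95% interval -0.70 to -0.12, FDR = 0.0585). Of 14 S100 genes on chromosome 3, which span 3.05 Mb, 6 were tested. S100a1, S100a13, S100a4 and S100a6 lie together toward the lower coordinates, with untested genes among them. S100a13, S100a4 and S100a6 had log2 fold changes between 0.54 and 1.19. S100a1 passed the filter only through the KO libraries, where it was higher, and its test is not read here. S100a4 was not called (FDR = 0.107), and without KO replicate 1 S100a4 and S100a6 were at 0.48 and 0.87. S100a11 and S100a10 follow after a gap of 2825 kb, at chr3:93520488-93526287 and chr3:93555080-93564643, and had -0.18 and 0.10. A link of position with the change was not tested.

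The 2 annexins were not called. Anxa2, which links the plasma membrane to actin and to S100a10, had 56.2, 42.5 and 52.4 CPM in WT and 152, 59.1 and 71.3 CPM in KO libraries. All KO libraries lay above the WT libraries, but KO replicate 1 was at 2.33 times the mean of the others. Its log2 fold change was 0.91 (SE 0.34, FDR = 0.105) with all libraries and 0.36 without KO replicate 1 (95% interval 0.02 to 0.69, FDR = 0.130). It passed the threshold when KO replicate 2 was left out (FDR = 0.0433). Anxa2 lies at chr9:69453620-69491795 on the plus strand, and 2.6% of its exon bases are shared with the antisense gene Gm16144. As counting did not use strand, reads of the pair cannot be told apart there.

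Anxa1, an inhibitor of inflammation through formyl peptide receptors, was the gene whose direction rested on 1 library. It had 29 counts in each of the 3 WT libraries (1.79, 1.19 and 1.60 CPM), 358 counts in KO replicate 1 (19.9 CPM) and 11 and 15 counts in KO replicates 2 and 3 (0.833 and 1.03 CPM). KO replicate 1 lay above, and the other KO libraries below, all WT libraries, and its level was 21.4 times the mean of the other KO libraries. The log2 fold change was 2.27 (SE 1.15, FDR = 0.206) with all libraries and -0.71 (95% interval -1.52 to 0.11, FDR = 0.208) without KO replicate 1. The myeloid marker sums were also highest in KO replicate 1. In KO replicates 2 and 3, however, these sums lay above all WT libraries, where Anxa1 lay below them. The part of the myeloid transcripts in the level of Anxa1 was not tested. The gene lies at chr19:20373428-20390944 on the minus strand.

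The galectins differed in level and in the size of the change. Lgals3, which can form oligomers that cross-link surface glycoproteins and is a known macrophage gene, had 4.68, 2.58 and 5.31 CPM in WT (76, 63 and 96 counts) and 117, 12.3 and 13.2 CPM in KO libraries (2104, 162 and 193 counts). The KO libraries were higher than the WT libraries without overlap, and KO replicate 1 was at 9.17 times the mean of the other KO libraries. The log2 fold change was 3.52 (SE 0.95, FDR = 0.0418; 11.5-fold) with all libraries and 1.60 (95% interval 0.94 to 2.27, FDR = 0.00882; 3.04-fold) without KO replicate 1. The rise was thus present in KO replicates 2 and 3, at a smaller size. In these libraries the summed monocyte and macrophage markers were at 135 and 65.4 CPM against 60.3 CPM or less in WT. Of these 16 markers, 13 and 6 exceeded 1 CPM in KO replicates 2 and 3, against 5, 4 and 4 in WT. The neutrophil markers were at 17.3 and 56.7 CPM against 6.16 CPM or less in WT. Of these 14 markers, 3 and 5 exceeded 1 CPM, against 1 in each WT library. Mpo was at 6.21 and 32.2 CPM in KO replicates 2 and 3, whereas S100a8 was at 0 and 0.890 CPM and Ngp at 0.0757 and 0.616 CPM. The part of both lists in the level of Lgals3 was not tested. The call was lost without WT replicate 1, 2 or 3 (FDR = 0.120, 0.153 and 0.116), with no filter on low counts (FDR = 0.0541) and with robust estimation of the dispersion (FDR = 0.108). DESeq2 gave no adjusted p for Lgals3 and so did not call it. Lgals3 lies at chr14:47367751-47386160 on the plus strand and is the gene with the 5p site shown above.

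Lgals1, a galectin that Treg cells release and that acts on activated T cells, had 124, 81.5 and 110 CPM in WT and 286, 130 and 173 CPM in KO libraries. The KO libraries lay above the WT libraries, KO replicate 2 by a small margin, and overlapped them when libraries were scaled by size alone. For Lgals1 the log2 fold change was 0.90 (SE 0.29, FDR = 0.0699) with all libraries and 0.52 without KO replicate 1 (FDR = 0.0926), and it passed the threshold only when KO replicate 2 was left out (FDR = 0.0273) among the fits that leave out 1 library. Lgals1 lies at chr15:78926725-78930465 on the plus strand.

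Capg was the gene of the 10 with the lowest FDR. It had 208, 193 and 172 CPM in WT and 422, 299.9 and 412 CPM in KO libraries, with no overlap of the groups. KO replicate 1 was at 1.18 times the mean of the other KO libraries, within reach of KO replicate 3. Capg rose by a log2 fold change of 0.98 (SE 0.15, FDR = 0.00623; 1.98-fold, from 191 ± 18.3 to 378 ± 67.7 CPM, SD, n = 3 per group), and 0.88 without KO replicate 1 (FDR = 0.00688). Capg passed the threshold in each of the 6 fits that leave out 1 library. It lies at chr6:72544391-72562983 on the plus strand.

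**Figure D3:**
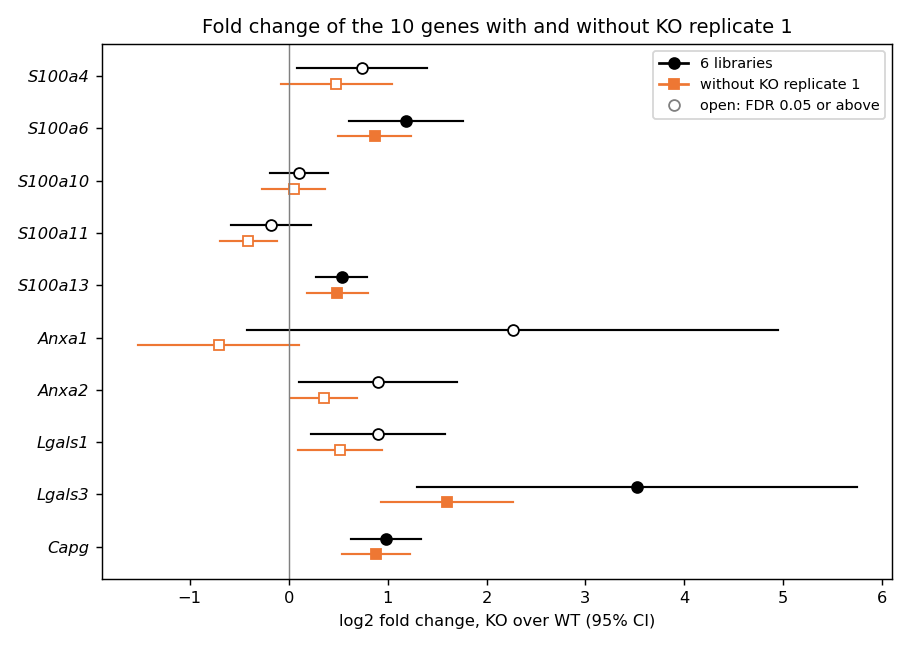
Log2 fold change (KO over WT) of the 10 genes with 95% confidence intervals, with all 6 libraries and without KO replicate 1, filled where the FDR is under 0.05. Without that library the values of Anxa1 and Lgals3 move from 2.27 to -0.71 and from 3.52 to 1.60, whereas Capg (0.98 and 0.88) and S100a13 (0.54 and 0.49) stay close.

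Read per library, 6 of the 10 genes had all KO above all WT libraries and 0 had all below, against 22.2% and 18.8% of tested genes. With library size alone as the scale, the number was 4, against 16.7% of tested genes, since Anxa2 and Lgals1 then overlapped. KO replicates 2 and 3 alone lay above the WT libraries for 6 genes and below them for 2 (S100a11 and Anxa1), against 25.1% and 24.0% of tested genes. KO replicate 1 was the highest of the 6 libraries for 8 of the 10 genes, which was the case for 23.4% of tested genes. It exceeded 2 times the mean of the other KO libraries for 3 genes (Anxa1, Lgals3 and Anxa2), compared with 6.00% of tested genes. The median ratio was 1.63 over the 10 genes and 0.994 over tested genes. For S100a13 (1.06), S100a10 (1.08) and Capg (1.18) the ratio was near 1.

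**Figure D4:**
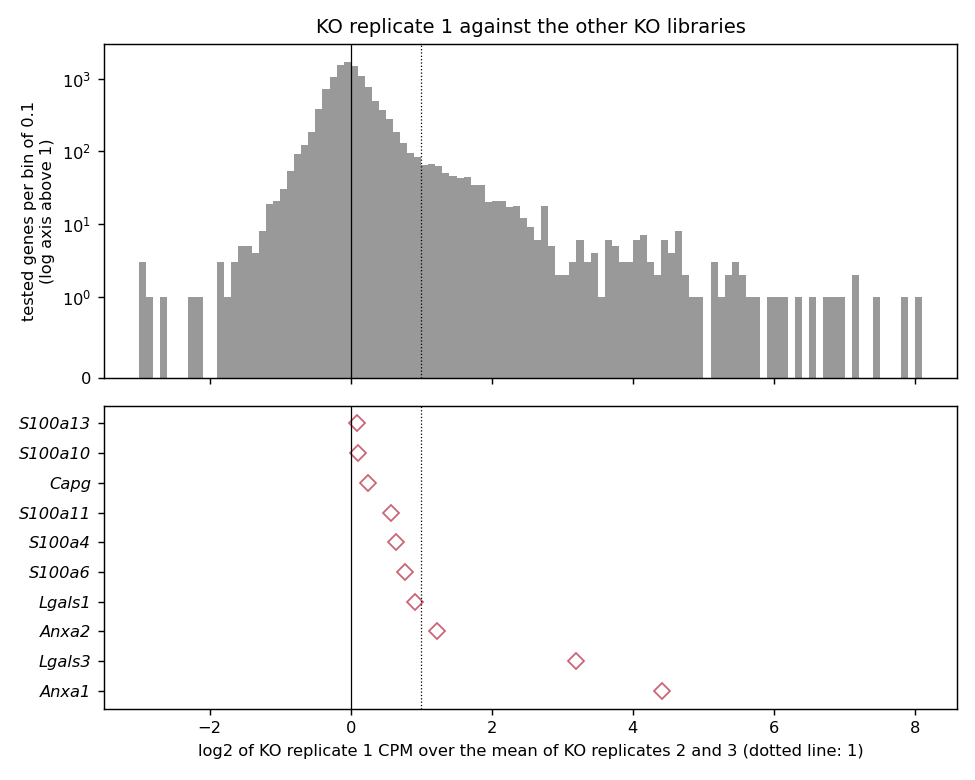
Log2 ratio of the CPM of KO replicate 1 to the mean of KO replicates 2 and 3, for all tested genes as a histogram (number of genes per bin, log axis above 1) and for the 10 genes as open diamonds, with a dotted line at 1. Anxa2, Lgals3 and Anxa1 lie beyond the dotted line, at ratios of 2.33, 9.17 and 21.4, and S100a13 and S100a10 lie near 0.

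The other members of these families were mostly at or near 0 or did not pass the test. Of 12 other S100 genes in the matrix, only S100a1 passed the filter, and it was not called (log2 fold change 1.06, SE 0.38, FDR = 0.0960). It had 1.11, 0.574 and 0.885 CPM in WT and 2.44, 1.29 and 1.51 CPM in KO libraries. It thus passed the filter only through the group where it was higher, and its test is not read here. S100a8 and S100a9, the subunits of calprotectin in neutrophils and monocytes, were not tested. S100a8 had 0 counts in the 3 WT libraries and in KO replicate 2, 13 counts in KO replicate 3 and 3177 counts (176 CPM) in KO replicate 1, and S100a9 had 247 CPM in KO replicate 1 and at most 1.23 CPM elsewhere.

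Of 10 other annexins, 6 were tested and 1 rose, a share near the 11.6% of all tested genes. Anxa4, a phospholipid-binding annexin of epithelia and leukocytes, had 12.1, 12.5 and 9.35 CPM in WT and 49.6, 15.9 and 24.4 CPM in KO libraries. The groups did not overlap. The fold change was 1.41 on the log2 scale (SE 0.39, FDR = 0.0452), and 0.82 without KO replicate 1 (FDR = 0.0382). The call was lost without WT replicate 1, 2 or 3 or KO replicate 3 (highest FDR 0.147) and, by a small margin, with library size alone, no filter or robust estimation. Anxa5, Anxa6, Anxa7, Anxa9 and Anxa11 had log2 fold changes between 0.09 and 0.71, and their groups overlapped. The most abundant of them was Anxa6, with 500 to 637 CPM in WT and 533 to 703 CPM in KO libraries.

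Of 7 other galectins, 4 were tested and 1 rose, beside 11.6% of all tested genes. Lgals8, a galectin with a pair of sugar-binding domains that marks damaged endosomes, had 97.1, 100.1 and 100.2 CPM in WT and 155, 145 and 145 CPM in KO libraries. The spread within each group was small and KO replicate 1 did not stand apart. On the log2 scale the change was 0.58 (SE 0.07, FDR = 0.00369), and 0.53 without that library (FDR = 0.00549). Lgals9, a ligand of the receptor Havcr2, was not called, with 155 to 167 CPM in WT and 157 to 176 CPM in KO libraries. Lgals4 and Lgals7 were at 3.42 CPM or less in every library (log2 fold changes of 0.03 and 1.37, FDR = 0.932 and 0.131), and as Lgals4 has a near-identical copy, Lgals6, reads may be split between them.

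Capg belongs to the gelsolin family. Of 5 other genes of the family in the test, Gsn and Scin were called higher and Avil and Svil lower, beside 11.6% of all tested genes called higher and 7.27% lower, but Avil entered the test only through the WT libraries. Scin, which severs actin filaments, had 3.57, 1.85 and 1.77 CPM in WT and 11.2, 12.6 and 16.8 CPM in KO libraries (log2 fold change 2.51, SE 0.33, FDR = 0.00381). Gsn, the founding member that severs and caps filaments, had 30.4, 28.3 and 25.7 CPM in WT and 75.3, 49.4 and 50.7 CPM in KO libraries (1.06, SE 0.18, FDR = 0.00898). In both, all KO libraries lay above the WT libraries. Svil, a membrane-bound actin and myosin linker, had 137, 129 and 124 CPM in WT and 92.4, 75.5 and 90.5 CPM in KO libraries (log2 fold change -0.60, SE 0.10, FDR = 0.00948). Avil, a relative of villin, had 1.36, 1.76 and 1.55 CPM in WT and 0.722, 0.606 and 0.548 CPM in KO libraries, so that it exceeded 1 CPM only in the group where it was higher, and its test is not read here. Flii was not called (-0.10, FDR = 0.581). The calls of Gsn, Scin and Svil were kept without KO replicate 1.

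**Figure D5:**
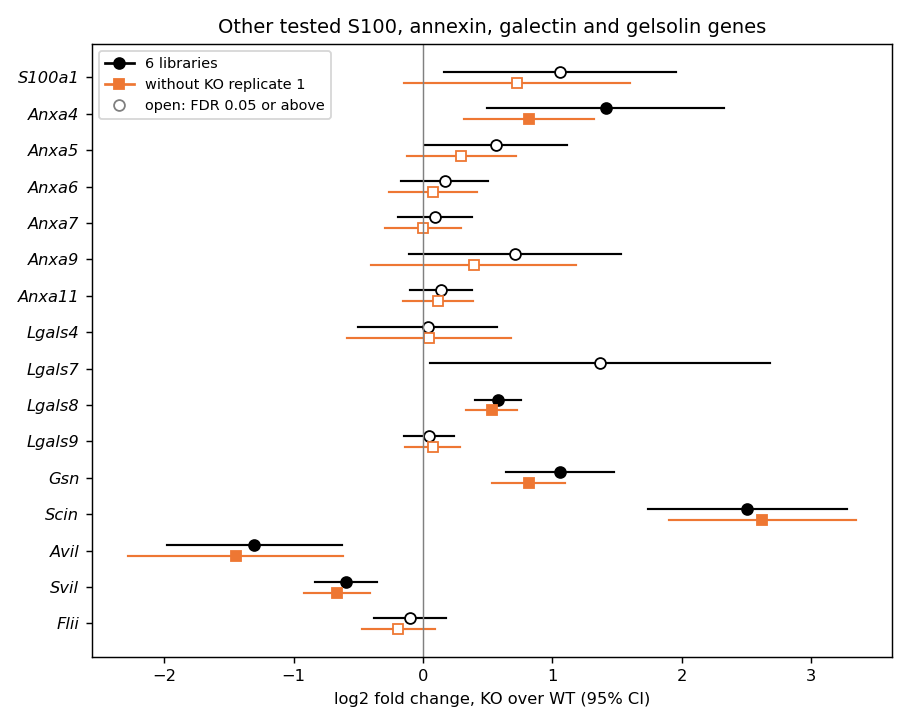
Log2 fold change (KO over WT) with 95% confidence intervals of the tested S100, annexin, galectin and gelsolin genes other than the 10, with all 6 libraries (circles) and without KO replicate 1 (squares), filled where the FDR is under 0.05. Anxa4, Lgals8, Gsn and Scin are filled above 0, Svil is filled below 0, as is Avil, which entered the test only through the WT libraries, and the intervals of genes such as Anxa6, Lgals9 and Flii span 0. Lgals7 was not tested without KO replicate 1.

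Among 22 binding partners, receptors and glycan-modifying enzymes of these proteins, 19 were tested, of which 2 rose and 2 fell. These shares are close to the 11.6% and 7.27% of all tested genes, and nothing about the partners as a group is read from them. Havcr2, the checkpoint receptor Tim-3 that binds galectin-9, had 2.22, 1.85 and 1.44 CPM in WT and 34.6, 7.19 and 11.2 CPM in KO libraries (log2 fold change 3.27, SE 0.61, FDR = 0.0126, and 2.31 without KO replicate 1, FDR = 0.00182). Cd2, an adhesion receptor of T cells, rose from 677, 632 and 597 CPM to 832, 928 and 913 CPM (0.49, SE 0.10, FDR = 0.0152). Both had all KO above all WT libraries, and KO replicate 1 was at 3.77 times the mean of the other KO libraries for Havcr2 and at 0.904 times for Cd2. St6gal1, which adds the α2,6-linked sialic acid that blocks galectin-1 binding, had 397, 371 and 342 CPM in WT and 145, 201 and 206 CPM in KO libraries. It fell by 1.01 on the log2 scale (SE 0.15, FDR = 0.00543), with all KO below all WT libraries, and fell by 0.88 without KO replicate 1 (FDR = 0.00171). Myh9, the myosin heavy chain bound by S100a4, fell by 0.44 (SE 0.12, FDR = 0.0449), a call that was kept in only 1 of the 6 fits that leave out 1 library. The calls of Havcr2 and Cd2 were each kept in 3 of these fits (highest FDR 0.0648 and 0.0774), and that of St6gal1 was kept in all 6. The formyl peptide receptors Fpr1 and Fpr2, through which Anxa1 acts, had 0 counts in WT and 20.4 and 23.3 CPM in KO replicate 1, with at most 0.0757 CPM in the other KO libraries.

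The 10 genes were set beside 30 other genes of effector and memory T cells and 16 of naive and central T cells. Of the 30, all tested, 15 rose and 1 (Lsp1, a leukocyte actin-binding protein) fell, beside 11.6% and 7.27% of all tested genes. Without KO replicate 1 the same 15 were higher and 2 (Cd44 and Itgal) lower, beside 9.69% and 7.59%. Lsp1 passed the test in none of the 6 fits that leave out 1 library. The median log2 fold change was 0.70, against 0.02 over all tested genes, and 0.42 without KO replicate 1, against -0.02. Vim, an intermediate filament, rose from 517, 443 and 482 CPM to 2016, 1942 and 1921 CPM (log2 fold change 2.03, SE 0.10, FDR = 0.000195). Itgae, the integrin CD103, rose by 2.18 (SE 0.14, FDR = 0.000508), Il2rb, a chain of the IL-2 receptor, by 1.03 (SE 0.09, FDR = 0.000996) and Klrg1, a receptor of terminally differentiated cells, by 2.49 (SE 0.22, FDR = 0.00110). For these 4 genes KO replicate 1 was between 0.997 and 1.15 times the mean of the other KO libraries. Without WT replicate 1, 2 or 3 the number of higher genes was 6, 6 and 7, beside 5.78%, 4.18% and 4.81% of all tested genes.

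Of the 16 naive and central genes, all tested, 2 were called higher and 3 lower, beside 11.6% and 7.27% of all tested genes. The list is small, and nothing about it as a group is read from these counts. Actn1, an actin cross-linker, fell by 1.54 (SE 0.13, FDR = 0.000996), Il6ra, the IL-6 receptor, fell by 1.38 (SE 0.15, FDR = 0.00219) and Dapl1 fell by 1.14 (SE 0.33, FDR = 0.0490). The call of Dapl1 was lost in 4 of the 6 fits that leave out 1 library (highest FDR 0.144) and with the filterByExpr filter or no filter. Igfbp4, a secreted binding protein of insulin-like growth factors, rose by 1.06 (SE 0.21, FDR = 0.0161), and Satb1, a chromatin organizer of T cells, by 0.74 (SE 0.18, FDR = 0.0303). Without KO replicate 1, 4 of the 16 were higher, Igfbp4 and Satb1 among them, and 3 lower, beside 9.69% and 7.59% of all tested genes. Without WT replicate 1, 2 or 3, 0 were called higher, beside 5.78%, 4.18% and 4.81% of all tested genes.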

How the data were processed

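RNA was extracted with the miRNeasy kit and made into TruSeq v2 libraries. The authors mapped 51-base single-end HiSeq 2500 reads to mm10 with HISAT and counted them per gene with featureCounts without regard to strand. Per the labels, CASAVA and edgeR were also used. The annotation, tool versions and treatment of reads with several matches are not given in the sources used here. The deposited values are raw counts without normalization.

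Genes above 1 CPM in 3 or more libraries were kept, library sizes were recomputed and scaled by TMM, and groups were compared with the QLF test of edgeR 4.0.16 in R 4.3.3 with Benjamini-Hochberg adjustment and an FDR threshold of 0.05. The SE is the log2 fold change divided by the square root of F. Symbols were matched to GENCODE vM21 on GRCm38 (the same build as mm10; 23376 by symbol, 669 by synonym, 376 unmatched), for positions, exon lengths and 3′ UTRs. The fit was tested on simulated data. DESeq2 1.42.0, other scalings, filters, thresholds and tests, a block on replicate number and leaving out each library were tried.

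The 10 genes and all lists were chosen with earlier results of these data known. Named were the 10 genes, all tested genes of the family lists, up to 4 called genes in each direction of the partner and T cell lists, the 3 monocyte and macrophage and the 3 neutrophil markers highest in KO replicate 1, some Treg markers, the 5 most alike genes and Mir142b. Other genes were named after their values were seen.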

Additional observations from a re-analysis of the deposited data

How the results depend on the processing

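Anxa1 had 11 to 29 counts in 5 libraries, and Lgals3 had 63 to 193 counts in the same 5. Of 60 log2 fold changes of the 10 genes in fits that leave out 1 library, 48 kept their direction and side of the threshold, and the exceptions are 8 calls lost, 3 gained and 1 reversal, Anxa1, which ranged from -0.71 without KO replicate 1 to 2.80 without KO replicate 2. Of 78 in other settings, which leave out Anxa1 and Lgals3 under DESeq2, 71 were kept, 2 lost and 5 gained, and none reversed. The cause of these shifts was not tested.

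At an FDR under 0.01, which by construction keeps fewer genes, 1 of the 10 genes was called higher (Capg), 0 other annexins, 0 partners higher and 1 lower, 1 gelsolin gene lower, 6 effector and memory genes higher and 0 lower, and 0 naive genes higher. The share of all tested genes called at this threshold is not given, so nothing about the lists is read from these counts. The same holds for the counts that follow, in each setting and direction without a stated share of all tested genes. Scaling by library size alone called 0 other annexins, and robust estimation also called 0. Effector and memory genes called lower numbered 2 with library size alone, robust estimation or DESeq2, and 0 with no filter, which left 1 partner lower. DESeq2 called 4 partners higher and 1 gelsolin gene lower. In the fits that leave out 1 library, the genes called higher numbered 1 to 6 of the 10 genes, 0 to 2 other annexins, 0 to 3 partners, 6 to 17 effector and memory genes and 0 to 4 naive genes, and the genes called lower numbered 1 to 2 gelsolin genes, 1 to 2 partners, 0 to 2 effector and memory genes and 2 to 6 naive genes.

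Replicate numbers were not used as pairs in the main fit. The correlations of same-numbered deviations from the group means were 0.0715, -0.0133 and -0.188, and not every library correlated best with its own number. With 3 libraries per group, these values cannot decide whether the libraries were paired. With replicate number as a block, 6 of the 10 genes were called higher, S100a4 (FDR = 0.0124) and Lgals1 (FDR = 0.0132) being added, beside 9.1% of all tested genes. The block also left 1 gelsolin gene lower, 1 partner lower and 0 effector and memory genes lower. The share of all tested genes called lower with the block is not given, so nothing is read from these lower counts.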

Other observations

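The mean of the standardised log2 CPM profiles of the 10 genes was compared with each other tested gene over the 6 libraries. The 5 most alike were Enpp4 (Pearson's r = 0.997), Yif1b (0.996), Ube2g2 (0.995), Fuca2 (0.995) and Idh1 (0.994). These genes were highest in KO replicate 1, as Enpp4 shows with 19.3, 15.1 and 16.6 CPM in WT and 28.8, 18.6 and 21.7 CPM in KO libraries, and none of the 5 passed the QLF test (FDR between 0.105 and 0.180). Over the 5 libraries without KO replicate 1, an alternative chosen after seeing the data, the 5 most alike were Enpp4, Idh1, Cuta, Ankrd54 and Msto1, so that 2 were shared. All points of these correlations share the same libraries and scaling. Among the 10 genes, the correlation with their own mean profile, of which each gene is a part, was highest for Lgals1 (r = 0.985) and Anxa2 (r = 0.979) and lowest for S100a10 (r = 0.686) and S100a11 (r = 0.273).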
